A study of Mus musculus with 4 samples.

Results

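The replication-dependent histone genes of YUMM1.7 mouse melanoma cells were followed from the cell body into the protrusions. They were chosen by gene symbol, as the genes named *Hist1* to *Hist4* with an H1, H2A, H2B, H3 or H4 suffix, which gave 67 of the 16537 genes in the table. The 67 comprised 6 H1, 18 H2A, 18 H2B, 12 H3 and 13 H4 genes. YUMM1.7 is a cell line engineered to resemble human melanoma, and all 4 libraries came from it with no further treatment or genotype. Cells sat overnight on membranes with 1-µm pores and fibronectin on the lower face, and the bodies left on top were scraped off before the protrusions were lysed from the membrane. Each fraction had 2 replicates of 6 inserts. The RNA was depleted of rRNA and not selected for poly(A), so messages without a poly(A) tail could enter the libraries.

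Replication-dependent histone genes supply the nucleosomes of newly copied DNA and are transcribed mainly in S phase. H2A, H2B, H3 and H4 form the core of the nucleosome, and the linker histone H1 binds DNA where it enters and leaves. Their mRNAs end in a stem-loop where other animal mRNAs carry a poly(A) tail. The stem-loop is bound by SLBP, which acts in the processing, translation and turnover of these messages.

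Most of the genes lay in the *Hist1* cluster, with 54 members at chr13:21715713-23934913 (mm10). The *Hist2* cluster held 10 members at chr3:96219916-96270192, *Hist3* held 2 at chr11:58948911-58955192, and *Hist4h4* lay alone at chr6:136803993-136804431. The 3′ ends of representative members are shown because the stem-loop sets these mRNAs apart and differs between classes. Each is the strand of the mRNA, read from GENCODE transcripts of GRCm38, with the 16 bases of the stem-loop in capitals.
*Hist1h1e* (chr13:23621777-23621802, minus strand): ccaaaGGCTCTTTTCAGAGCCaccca
*Hist2h2ac* (chr3:96220413-96220438, minus strand): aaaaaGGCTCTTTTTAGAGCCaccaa
*Hist2h2bb* (chr3:96270166-96270191, plus strand): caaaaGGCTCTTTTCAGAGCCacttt
*Hist1h2bb* (chr13:23747198-23747223, plus strand): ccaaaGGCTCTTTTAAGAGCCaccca
*Hist1h3e* (chr13:23561898-23561923, minus strand): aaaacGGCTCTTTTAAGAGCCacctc
*Hist1h3g* (chr13:23535884-23535909, plus strand): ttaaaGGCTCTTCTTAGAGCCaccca
*Hist1h4d* (chr13:23581945-23581969, plus strand): ccaaaGGCCCTTTTCAGGGCCacta
*Hist1h4b* (chr13:23757361-23757386, plus strand): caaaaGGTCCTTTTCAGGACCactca
*Hist1h4a* (chr13:23760795-23760820, minus strand): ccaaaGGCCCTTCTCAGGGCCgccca
*Hist1h4i* (chr13:22040961-22040986, minus strand): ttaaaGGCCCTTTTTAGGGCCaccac
The stem-loop was searched as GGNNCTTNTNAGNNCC on the mRNA strand and was found in 46 of the 67 members. It was in the last 60 bases of 0 of 21797 other protein-coding genes' longest transcripts. The 2 searches differ, since members were searched over all sequence after the stop codon, or over all sequence where no stop was known. Other transcripts of the other genes were not searched. Where the stop codon was known, the stem-loop began 21 to 54 bases after it, with a median of 31. For 19 of the other members the end of the counted interval was not fully covered by the transcripts or the counting spanned several exons. For *Hist1h4j* the interval of 312 bases held the coding sequence alone, so its 3′ end was not read and a stem-loop could not be found. For *Hist2h2be* no match lay in the sequence read. The stem differed by class. All 35 members of the classes H1, H2A, H2B and H3 with a stem-loop began it with GGCTCTT, whereas 10 of the 11 H4 genes began it with GGCCCTT and *Hist1h4b* carried GGTCCTT.

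Many copies of a class share long stretches of sequence, which limits how far reads can be told apart. The 12 H4 genes whose coding sequence was read whole encoded 1 protein in 12 different nucleotide sequences, with 85.3% to 98.4% identity between pairs. The 10 such H3 genes encoded 2 proteins, with 93.9% to 99.3% identity between pairs of coding sequences of the usual length. The 14 H2A genes encoded 8 proteins at 77.6% to 99.5% identity, the 13 H2B genes 10 at 82.9% to 98.4%, and the 6 H1 genes 6. A stretch of the H4 coding sequence, bases 4 to 33 counted from the start codon, is shown for the most abundant copy and for the 4 on which the H4 results turn. Of stretches of this length that start at a codon, it held the most positions that vary among the H4 genes. Over all 312 coding bases *Hist1h4j* differed from *Hist1h4d* at 18, *Hist1h4k* and *Hist1h4b* at 19, and *Hist4h4* at 40. Capitals mark bases that differ from *Hist1h4d*.
*Hist1h4d* (chr13:23581605-23581634, plus strand): tctggacgcgggaaaggcggcaagggtctt
*Hist1h4j* (chr13:21735099-21735128, plus strand): tctggCAgAggTaaGggcggGaaAggGctC
*Hist1h4k* (chr13:21750473-21750502, minus strand): tctggCAgAggTaaGggcggGaaAggGctC
*Hist1h4b* (chr13:23757024-23757053, plus strand): tctggTcgcggCaaGggAggAaaAggCctG
*Hist4h4* (chr6:136804347-136804376, minus strand): tcAggacgAggAaaaggcggcaagggtctG
*Hist1h4j* and *Hist1h4k* were the same over this stretch and differed at 5 of 312 coding bases. Over 50-base windows, the share of a gene's sequence found in no other gene's transcript had a median of 46.3% over the members used in the tests below and ran from 6.08% in *Hist1h3h* to 100% in 5 of them. Windows with a base that no transcript covered were left out, so the share of a partly covered gene describes only its covered part. The sources used here do not give how the authors assigned reads that fit several copies, so a difference between near-identical copies is uncertain.

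The promoters also differed by class. Of 62 members matched to a RefSeq promoter of GRCm38.p6, the 250 bases before the start held CCAAT on either strand in all 18 H2A and all 16 H2B genes, in 6 of 6 H1 genes and in 8 of 10 H3 genes, but in 3 of 12 H4 genes, against 34.4% of 26964 other promoters. The octamer ATTTGCAT on either strand was in 7 H2A and 6 H2B genes and in 0 of the other classes, against 1.57% of other promoters. TATAAA on the sense strand was in 24 of the 62 and in 8.05% of the others. Many H2A and H2B genes share 1 such region, since they sit head to head.

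Levels are in TPM, the length-scaled share of a library, taken as deposited. The libraries held 25854947 to 30994908 reads on genes, recovered from the TPM ratios, of which 0.645% to 0.841% were histone reads. Histone messages made up 3.17% and 2.53% of TPM in cell bodies and 2.88% and 2.62% in protrusions, so the protrusion values lay between those of the cell bodies. Protrusions replicate 1 stood apart by its liver messages, with a summed 113.7 TPM of 30 liver genes against 2.61 to 5.48 TPM elsewhere. Of 12 melanocyte lineage genes looked up, 7 had an entry, and *Sox10*, *Dct*, *Tyrp1*, *Mlana* and *Kit* had none under those symbols. The 7 summed to 36.1 to 56.8 TPM, mostly *Cspg4*, with *Mitf* at 5.12 to 6.17 TPM, *Tyr* at 0.195 to 0.762 TPM and *Pmel* at no more than 0.0696 TPM. Of 10 white blood cell genes, 7 had an entry and summed to 3.92 to 7.12 TPM. Of 8 fibroblast genes, 7 had an entry and summed to 865 and 988 TPM in cell bodies and 776 and 603 TPM in protrusions. Of these, *Col1a2* was at 376 to 530.2 TPM, *Col1a1*, *Dcn* and *Lum* were at no more than 6.14 TPM, and *Pdgfra* was called lower in protrusions (log2 fold change -1.10, adjusted p = 0.035 from limma). The part of these differences in the histone values was not tested, but the call counts, class medians and named genes were also computed without each library.

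Of the 67 genes, 56 had a mean of at least 1 TPM and were tested. These were 5 H1, 13 H2A, 15 H2B, 10 H3 and 13 H4 genes. The other 11 were at 0 to 1.21 TPM. Among them were the testis histones *Hist1h1t*, *Hist1h2aa* and *Hist1h2ba*, with 0 to 10 reads in a library. The remaining 8 were copies counted over shared sequence. *Hist1h2bq* and *Hist1h2br* held the same 0 to 2 reads over the same interval, *Hist2h2aa1* and *Hist2h2aa2* the same 9 to 23 reads, *Hist2h3c1* and *Hist2h3c2* the same 3 to 7 reads, and *Hist1h2ao* and *Hist1h2ap* the same 1 to 5 reads. Whether reads that fit both copies were counted is not given, so these values set no level for the messages.

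**Figure D1:**
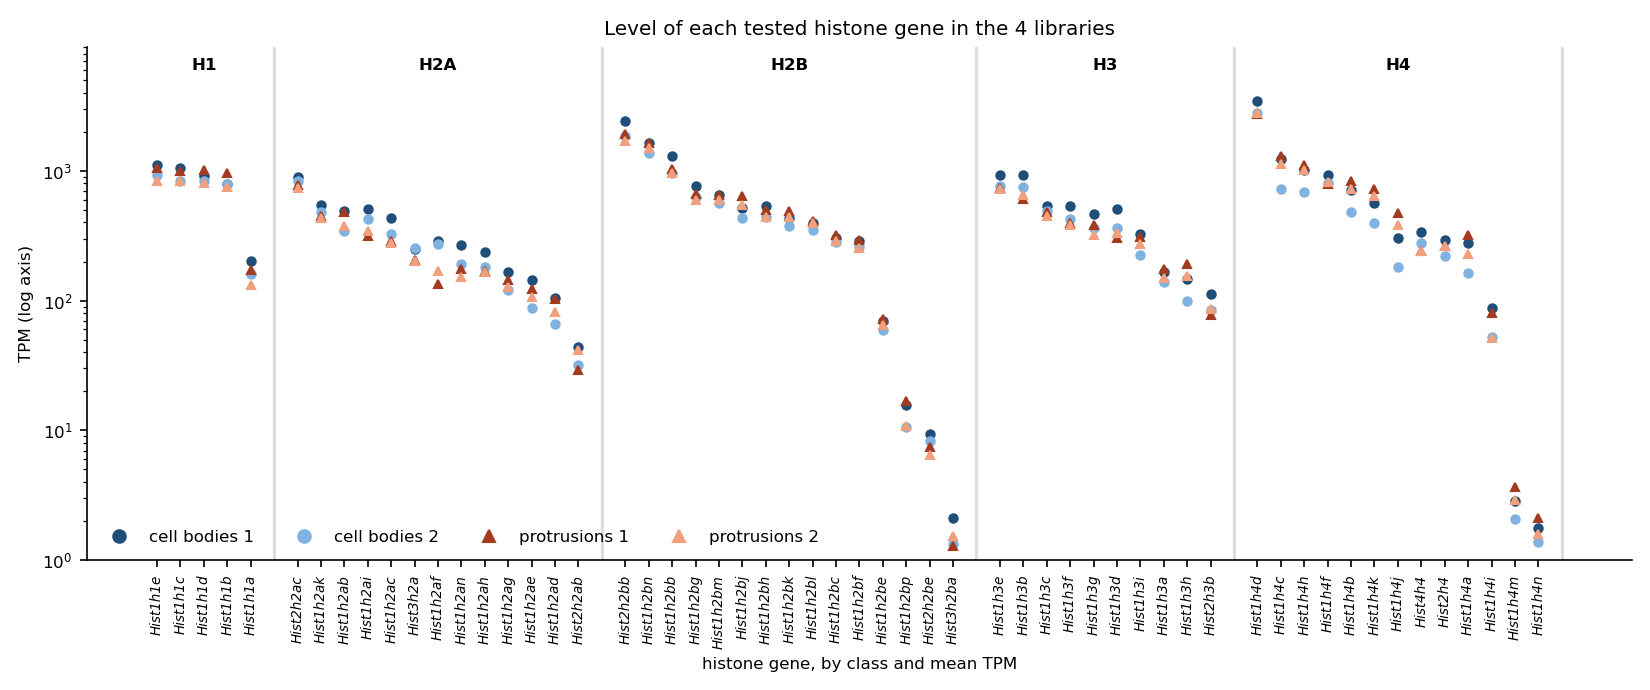
TPM on a log axis of the 56 tested histone genes, by class and mean level, in the 2 cell body libraries (circles) and the 2 protrusion libraries (triangles). *Hist1h4d* was highest in all 4 libraries, and the light circle of cell bodies replicate 2 lies below the dark circle of replicate 1 in 54 of the 56 genes.

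Few histone genes differed between the fractions. In a limma fit of log2(TPM + 0.5) over 11400 genes, 1 of the 56 was called lower in protrusions and 0 higher at an adjusted p under 0.05. Over all genes tested, 4.25% were called lower and 2.99% higher. At an unadjusted p under 0.05 there were 10 histone genes, against 31.3% of all genes. The replicate numbers pair the libraries, and with the replicate as a block 5 were called lower and 4 higher, against 13.3% lower and 8.08% higher of all genes. The members' shares were not above the background in these 2 fits. After a correction for transcript GC content, 9 of the 56 were called lower and 0 higher, against 4.04% and 3.39% of all genes. These 9 were *Hist1h2af*, *Hist1h2ai*, *Hist1h2an*, *Hist1h2ac*, *Hist1h2ah*, *Hist1h2ak*, *Hist1h3b*, *Hist1h3d* and *Hist2h3b*, 6 H2A and 3 H3 genes. GC content was read only from bases that transcripts cover. These were 73.3% of the interval in *Hist1h2ak*, 77.6% in *Hist1h2ah*, 84.2% in *Hist1h2af*, 87.7% in *Hist1h2ai* and 87.9% in *Hist1h2an*. Cover was 97.7% in *Hist1h2ac* and 100% in the H3 genes. How the missing bases moved the corrected folds was not tested. The median log2 fold change was -0.06 over the 56 and -0.07 over all genes, with 25 histone genes above 0 and 31 below. Each fraction had n = 2 libraries, and p-values cover only the spread between them.

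The class medians lay on both sides of 0. The median log2 fold change was 0.34 for H4, 0.03 for H2B, -0.04 for H1, -0.22 for H3 and -0.23 for H2A. Both protrusion libraries lay above both cell body libraries for 4 H4, 2 H2B, 1 H3, 0 H2A and 0 H1 genes, an order that 26.4% of all tested genes showed. Both lay below for 8 H2A, 5 H3, 2 H4, 1 H2B and 0 H1 genes, against 37% of all genes. The H4 median rested on the low level of cell bodies replicate 2, since it was -0.02 without that library. It was 0.09 after the GC correction, which moved all 5 medians down.

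**Figure D2:**
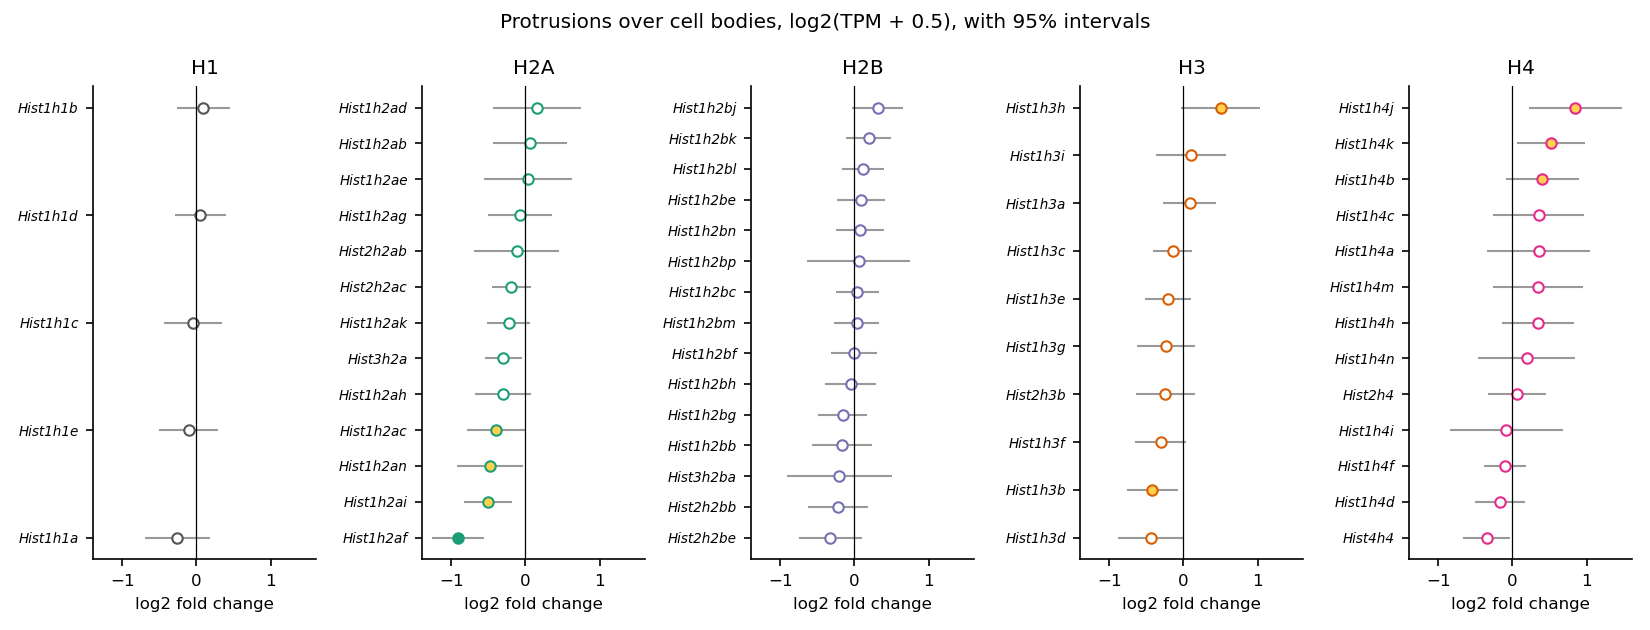
Log2 fold change between the fractions, protrusions over cell bodies, on the log2(TPM + 0.5) scale, for each tested gene by class, with 95% intervals from limma. The filled green point (*Hist1h2af*) passed an adjusted p under 0.05 without the block, and of the 2 fits the 8 yellow points passed in the blocked one alone. Yellow points lie to the left among H2A genes and to the right among H4 genes.

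H4, with H3, forms the central tetramer of the nucleosome. *Hist1h4d* was the most abundant histone message, at 3448 and 2790.5 TPM in cell bodies and 2723 and 2782 TPM in protrusions. Its protrusion values lay below cell bodies replicate 1 and just below replicate 2 (log2 fold change -0.17, 95% interval -0.51 to 0.17, adjusted p = 0.432 from limma). *Hist1h4c* measured 1225 and 727 TPM in cell bodies and 1296 and 1121 TPM in protrusions. *Hist1h4h* measured 1008 and 686 TPM in cell bodies and 1106 and 1007 TPM in protrusions. Both had 1 cell body library well below the other 3 libraries, and neither passed (adjusted p = 0.378 and 0.281 from limma).

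With the replicate as a block 3 of the 13 tested H4 genes were called higher in protrusions, against 8.08% of all genes. *Hist1h4j* measured 305 and 183 TPM in cell bodies and 473 and 383 TPM in protrusions, a 1.80-fold difference (log2 fold change 0.85, 95% interval 0.22 to 1.47). Its groups did not overlap, and it had the largest positive fold of the 56 (limma adjusted p = 0.0908, 0.00201 with the block). *Hist1h4k*, its near copy, measured 566 and 396 TPM in cell bodies and 719.7 and 641 TPM in protrusions. This was 1.43-fold, also without overlap (limma adjusted p = 0.129, 0.0162 with the block). *Hist1h4b*, with the divergent stem-loop shown above, measured 712 and 485 TPM in cell bodies and 839 and 721 TPM in protrusions, and its lowest protrusion library was only just above its highest cell body library (limma adjusted p = 0.229, 0.0465 with the block). The share of unique windows was 32.3% in *Hist1h4j*, 28.5% in *Hist1h4k* and 52.6% in *Hist1h4b*. In *Hist1h4k* transcripts covered 76.3% of the interval. After the GC correction the log2 fold change of *Hist1h4j* was 0.49 (limma adjusted p = 0.178, 0.0336 with the block). The correction ended the blocked calls of the other 2, at 0.17 in *Hist1h4k* (limma adjusted p = 0.445 with the block) and 0.25 in *Hist1h4b* (limma adjusted p = 0.303 with the block).

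The 2 H4 genes outside the *Hist1* cluster were not called in either fit. *Hist4h4*, with 100% unique windows, measured 337 and 278 TPM in cell bodies and 239 and 241 TPM in protrusions. Its protrusion values lay below both cell body values, without passing the test (log2 fold change -0.35, 95% interval -0.67 to -0.03, adjusted p = 0.137 from limma, 0.0705 with the block). *Hist2h4*, with 95.1%, measured 293 and 219.7 TPM in cell bodies and 266 and 263 TPM in protrusions, and its protrusion values fell between the cell body values (log2 fold change 0.06, 95% interval -0.33 to 0.45). The remaining 5 H4 genes, *Hist1h4f*, *Hist1h4a*, *Hist1h4i*, *Hist1h4m* and *Hist1h4n*, had log2 fold changes of -0.10 to 0.35, none called in either fit. *Hist1h4m* and *Hist1h4n* rested on 11 to 21 reads in a library, over intervals that share bases. In cell bodies replicates 1 and 2 and protrusions replicates 1 and 2, *Hist1h4m* held 18, 11, 20 and 20 reads. *Hist1h4n* held 20, 13, 21 and 20. Whether the same reads were counted for both is not given, so they may not be separate results. *Hist1h4m* measured 2.88 and 2.09 TPM in cell bodies and 3.66 and 2.90 TPM in protrusions, only just without overlap.

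H2A pairs with H2B in the nucleosome, and its genes leaned to the cell body side. *Hist2h2ac*, the most abundant, measured 896 and 829 TPM in cell bodies and 774 and 737 TPM in protrusions. *Hist1h2ak* measured 550.1 and 481 TPM in cell bodies and 448 and 431 TPM in protrusions. In both genes the fractions did not overlap, with protrusions lower, but the test was not passed (adjusted p = 0.275 and 0.238 from limma). *Hist1h2ab* measured 486 and 347 TPM in cell bodies and 485 and 379 TPM in protrusions, with its protrusion values inside the range of the cell bodies.

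*Hist1h2af* was the 1 member called in the limma fit with neither a block nor a correction. It measured 289.7 and 275 TPM in cell bodies and 134 and 169 TPM in protrusions, or 282 ± 10.6 TPM in cell bodies and 152 ± 24.4 TPM in protrusions (SD, n = 2). The protrusion values were all below the cell body values, 1.87-fold lower on average (log2 fold change -0.90, 95% interval -1.25 to -0.55, SE 0.14, adjusted p = 0.0355 from limma, 0.00156 with the block). The call was lost without any 1 library (adjusted p 0.0667 to 0.162), when 0 genes of the whole table passed or, without protrusions replicate 1, 14 higher and 144 lower. Its log2 fold change then ran from -1.07 to -0.74. After the GC correction it was -1.28 (limma adjusted p = 0.0401). Only 20.3% of its windows were unique.

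With the block 3 further H2A genes were called lower, which made 4 of the 13 tested, against 13.3% of all genes. *Hist1h2ai* measured 509.7 and 424 TPM in cell bodies and 314 and 341 TPM in protrusions. Its protrusion values were 1.42-fold lower and did not overlap the cell bodies (limma adjusted p = 0.0693, 0.0197 with the block). *Hist1h2an* measured 269 and 193 TPM in cell bodies and 175 and 153 TPM in protrusions (limma adjusted p = 0.142, 0.0212 with the block). *Hist1h2ac* measured 433 and 324 TPM in cell bodies and 288 and 279.7 TPM in protrusions (limma adjusted p = 0.153, 0.0498 with the block). In both, protrusions lay below the lower cell body value by less than the distance between the cell body replicates. *Hist1h2ai* shares 98.2% of its coding bases with *Hist1h2an* and 98.0% with *Hist1h2af*.

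*Hist3h2a*, the best resolved H2A gene with 90.8% unique windows, measured 248 and 253 TPM in cell bodies and 205 and 203 TPM in protrusions. The fractions did not overlap and the replicates were close (log2 fold change -0.30, 95% interval -0.54 to -0.05), but it was not called (limma adjusted p = 0.116, 0.0962 with the block). *Hist2h2ab* measured 44.3 and 32.0 TPM in cell bodies and 29.1 and 41.3 TPM in protrusions and its fractions overlapped. The other 4 tested H2A genes, *Hist1h2ah*, *Hist1h2ag*, *Hist1h2ae* and *Hist1h2ad*, had log2 fold changes of -0.30 to 0.15, none called in either fit.

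H2B genes differed little. *Hist2h2bb* was the most abundant H2B message, at 2429.7 and 1848 TPM in cell bodies and 1935 and 1706 TPM in protrusions. It has 100% unique windows, and its protrusion values fell on both sides of cell bodies replicate 2 (log2 fold change -0.22, 95% interval -0.62 to 0.18). *Hist1h2bn* measured 1628 and 1366 TPM in cell bodies and 1650.5 and 1498 TPM in protrusions. *Hist1h2bb* measured 1295 and 962 TPM in cell bodies and 1030.3 and 966 TPM in protrusions. The fractions of both overlapped, and of the 15 H2B genes 0 were called in either fit. At the low end, *Hist2h2be* was at 9.39 and 8.31 TPM in cell bodies and 7.47 and 6.48 TPM in protrusions, without overlap and lower in protrusions (log2 fold change -0.32, 95% interval -0.75 to 0.10, adjusted p = 0.254 from limma). *Hist3h2ba* was at 2.11 and 1.34 TPM in cell bodies and 1.28 and 1.53 TPM in protrusions from 8 to 15 reads in a library. The largest positive fold was that of *Hist1h2bj* (log2 fold change 0.31, adjusted p = 0.185 from limma). The other 9 H2B genes had log2 fold changes of -0.16 to 0.19.

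Head to head with an H2B gene lie 10 of the H2A genes, their starts 177 to 305 bases apart, which allows each pair to be compared within a library. In 9 of these pairs both genes were tested. The H2B to H2A ratio was higher in both protrusion libraries than in both cell body libraries in 6 of the 9, lower in 1 and overlapping in 2. The share of other gene pairs with such an order was not computed. At *Hist1h2ai* and *Hist1h2bl*, 268 bases apart, the ratio was 0.783 and 0.824 in cell bodies and 1.32 and 1.17 in protrusions. At *Hist1h2ac* and *Hist1h2bc* it was 0.707 and 0.872 in cell bodies and 1.11 and 1.02 in protrusions. The H2B log2 fold change was above that of H2A in 6 of the 9 pairs, and the median difference over all 9 was 0.39. The 3 exceptions were *Hist1h2ae* with *Hist1h2bg*, *Hist1h2ad* with *Hist1h2bf*, and *Hist2h2ac* with *Hist2h2be*. GC content moved with this, at a median of 64.9% in tested H2A genes and 59.3% in H2B genes. After the GC correction the H2B fold was above the H2A fold in 7 of the 9 pairs, and the median difference over all 9 was 0.43.

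Of the 10 H3 genes 7 had folds below 0, as did 56.9% of all tested genes. *Hist1h3e* measured 925 and 771 TPM in cell bodies and 741 and 722 TPM in protrusions. *Hist1h3b* measured 936 and 754 TPM in cell bodies and 606 and 650.5 TPM in protrusions. Neither overlapped, and *Hist1h3b* was 1.34-fold lower and, of the 2 fits, called with the block alone (limma adjusted p = 0.109, 0.0465 with the block). *Hist1h3c* measured 533 and 495 TPM in cell bodies and 479 and 452 TPM in protrusions, with protrusions below cell bodies by less than the distance between the cell body replicates (log2 fold change -0.14, 95% interval -0.40 to 0.12).

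*Hist1h3h* went the other way, at 147 and 98.6 TPM in cell bodies and 189.9 and 154 TPM in protrusions. It was 1.42-fold higher without overlap (limma adjusted p = 0.176, 0.0173 with the block). Its share of unique windows, 6.08%, was the lowest of the tested genes, read from the 84.2% of its interval that transcripts cover. The GC correction ended that call, with a log2 fold change of 0.14 (limma adjusted p = 0.47 with the block). *Hist2h3b* measured 112 and 85.3 TPM in cell bodies and 77.9 and 86.6 TPM in protrusions. Its protrusion values lay around that of cell bodies replicate 2 (log2 fold change -0.25, 95% interval -0.64 to 0.15). The other 5 H3 genes, *Hist1h3f*, *Hist1h3g*, *Hist1h3d*, *Hist1h3i* and *Hist1h3a*, had log2 fold changes of -0.44 to 0.10, none called in either fit.

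H1 genes, whose median share of unique windows was the highest of the 5 classes at 80.9%, showed no difference that passed. *Hist1h1e* measured 1116 and 921 TPM in cell bodies and 1059 and 841 TPM in protrusions. *Hist1h1c* measured 1055 and 832 TPM in cell bodies and 992 and 834 TPM in protrusions. *Hist1h1d* measured 913 and 831 TPM in cell bodies and 1007 and 813 TPM in protrusions. In all 3 the fractions overlapped, and the 5 tested H1 genes, with *Hist1h1b* and *Hist1h1a*, had log2 fold changes of -0.25 to 0.10. Protrusions replicate 1 was above replicate 2 in all 5.

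Summed over a class, H2A and H3 messages were lower in protrusions and the other classes overlapped. H4 genes summed to 9192 and 6794 TPM in cell bodies and 8861 and 8266 TPM in protrusions, and H2B genes to 9355 and 7594 TPM in cell bodies and 8665 and 7808 TPM in protrusions. H1 genes summed to 4075 and 3539.9 TPM in cell bodies and 4188 and 3369 TPM in protrusions. For these 3 classes the fractions overlapped, and the log2 ratio of the H4 sums was 0.12, less than the median of the single genes, because *Hist1h4d* weighs most in it. H2A genes summed to 4378 and 3614 TPM in cell bodies and 3394 and 3219 TPM in protrusions, and H3 genes to 4658 and 3725 TPM in cell bodies and 3665 and 3517 TPM in protrusions. Both of these were lower in both protrusion libraries, an order that 37% of all genes showed, but the higher H3 sum in protrusions was below cell bodies replicate 2 by far less than the cell body replicates differed. Ratios within a library do not depend on how libraries are scaled. The H4 to H2A ratio was 2.10 and 1.88 in cell bodies and 2.61 and 2.57 in protrusions, and the H4 to H3 ratio was 1.97 and 1.82 in cell bodies and 2.42 and 2.35 in protrusions. H2B to H2A was 2.14 and 2.10 in cell bodies and 2.55 and 2.43 in protrusions. The H3 to H2A ratio barely moved, at 1.06 and 1.03 in cell bodies and 1.08 and 1.09 in protrusions. Relative to H1, H4 and H2B overlapped between the fractions. H4 to H1 was 2.26 and 1.92 in cell bodies and 2.12 and 2.45 in protrusions. H2B to H1 was 2.30 and 2.15 in cell bodies and 2.07 and 2.32 in protrusions. H2A and H3 were lower in protrusions relative to H1. H2A to H1 was 1.07 and 1.02 in cell bodies and 0.81 and 0.96 in protrusions. H3 to H1 was 1.14 and 1.05 in cell bodies and 0.88 and 1.04 in protrusions, only just without overlap. With 2 libraries of each fraction, an exact permutation test of such a ratio cannot pass the 0.05 threshold. Reads misplaced between copies of 1 class stay within its sum, but copies differ in counted length, which scales them. The H4 and H2A medians of single genes were 0.09 and -0.49 after the GC correction. They were closer without cell bodies replicate 2, at -0.02 and -0.32, and without protrusions replicate 1, at 0.11 and -0.25. Genes with at least 90% unique windows gave -0.14 and -0.30, but these were only 2 H4 genes and 1 H2A gene.

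**Figure D3:**
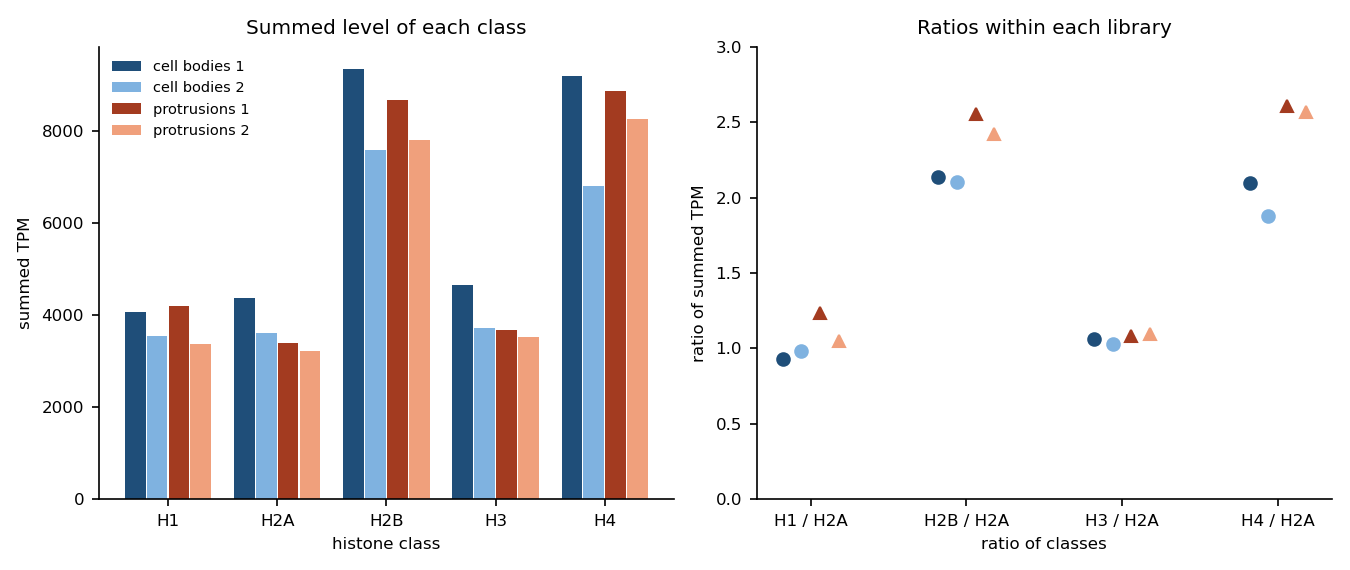
Left, summed TPM of all members of each class in each library. Right, summed TPM of H1, H2B, H3 and H4 divided by that of H2A within each library, cell bodies as circles and protrusions as triangles in the colours of the left panel. The H2B to H2A and H4 to H2A ratios were 2.43 or higher in protrusions and 2.14 or lower in cell bodies.

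The replicates split in a way that most genes did not. Cell bodies replicate 1 was above replicate 2 in 54 of the 56 histone genes, with a median log2 ratio of 0.33, while over all genes the median was -0.08 and 38.1% were above. The 2 exceptions were *Hist1h1b* and *Hist3h2a*. The split was widest in H4, with a median of 0.52 and up to 0.75 in *Hist1h4i*, and was 0.42 in H2A, 0.34 in H3, 0.28 in H1 and 0.25 in H2B. Among protrusions, replicate 1 was above replicate 2 in 46 of the 56, with a median log2 ratio of 0.16, against 0.07 and 63.0% of all genes. In bulk libraries, fewer cells in S phase and less histone message per cell cannot be told apart.

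Because the cell bodies split more than the protrusions, the 2 replicates gave different pictures. In replicate 1, 20 of the 56 histone genes were higher in protrusions and the median log2 ratio was -0.14, against 50.2% and 0.00 over all genes. In replicate 2, 31 were higher and the median was 0.02, against 38.2% and -0.14 over all genes. The ratio was larger in replicate 2 for 46 of the 56, which was the case for 30.2% of all genes. The direction was the same in both replicates for 39 genes, 17 higher and 22 lower, against 32.7% and 44.3% of all genes. It was higher in both for 8 of 13 H4 genes and lower in both for 8 of 13 H2A genes, while 0 H2A genes were higher in both. The 8 H4 genes include *Hist1h4m* and *Hist1h4n*, which have few reads and may share them.

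**Figure D4:**
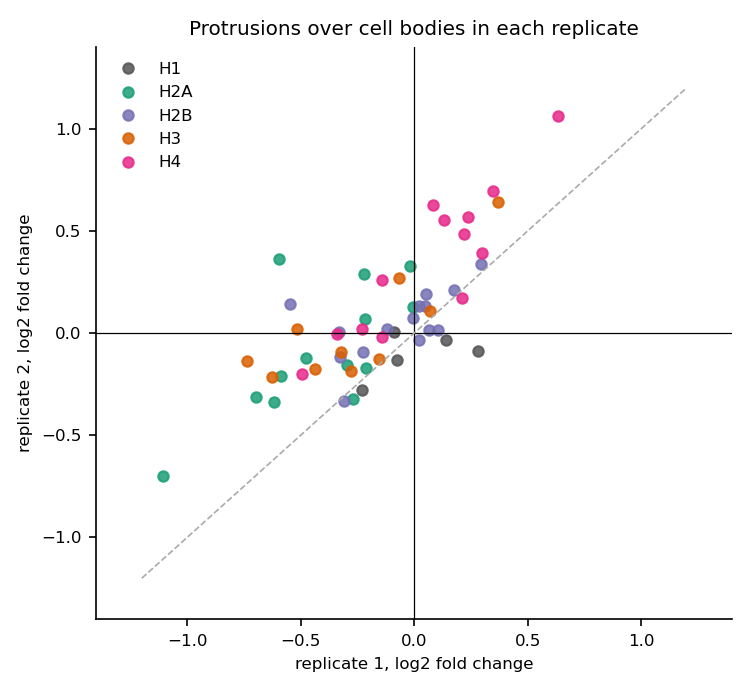
Log2 ratio of protrusions to cell bodies for each tested histone gene in replicate 1 (horizontal) and replicate 2 (vertical), coloured by class, with the dashed line of equal ratios. 46 of 56 points lie above the line, H4 points gather to the upper right and H2A points to the left.

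Other genes of histone supply were read for comparison. Replacement histones are also made outside S phase, from mRNAs with poly(A) tails, and H2AX from both kinds. Of 11 tested, 1 was called higher and 0 lower, against 2.99% and 4.25% of all genes. The median log2 fold change was 0.23. *H1fx*, an H1 variant, measured 4.76 and 3.63 TPM in cell bodies and 8.44 and 9.90 TPM in protrusions (log2 fold change 1.05, 95% interval 0.55 to 1.55, adjusted p = 0.0445 from limma, 0.00803 with the block). After the GC correction its log2 fold change was 0.67 and it was called with the block alone (adjusted p = 0.057 from limma, 0.0123 with the block). *H2afx*, which encodes H2AX, measured 210.3 and 151 TPM in cell bodies and 250.1 and 278 TPM in protrusions, did not overlap and was called with the block (adjusted p = 0.0996 from limma, 0.0225 with the block), a call that the GC correction ended (limma adjusted p = 0.232 with the block). The abundant *H2afz*, *H3f3b* and *H3f3a*, which encode H2A.Z and H3.3, were at 543 to 1515 TPM with log2 fold changes of 0.01, -0.04 and 0.23.

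Among 28 tested factors of histone mRNA transcription, 3′ end formation, translation and turnover, 2 were called higher and 0 lower. The shares over all genes were 2.99% and 4.25%. *Sympk*, the scaffold of the cleavage complex, measured 29.1 and 32.2 TPM in cell bodies and 61.2 and 62.8 TPM in protrusions (log2 fold change 1.01, 95% interval 0.71 to 1.30, adjusted p = 0.0342 from limma). *Upf1*, a helicase of histone mRNA decay, measured 19.9 and 20.6 TPM in cell bodies and 36.3 and 36.2 TPM in protrusions (log2 fold change 0.82, 95% interval 0.52 to 1.12, adjusted p = 0.0349 from limma). In the blocked fit 3 more were called, all lower, where 13.3% of all genes were called lower. *Npat*, the coactivator of histone gene transcription, measured 26.1 and 31.5 TPM in cell bodies and 19.6 and 14.9 TPM in protrusions (adjusted p = 0.0677 from limma, 0.0168 with the block). *Casp8ap2*, which encodes FLASH of the 3′ processing machinery, measured 37.1 and 33.7 TPM in cell bodies and 25.8 and 18.9 TPM in protrusions (adjusted p = 0.0759 from limma, 0.0122 with the block). *Slbp* measured 145 and 147 TPM in cell bodies and 118 and 101 TPM in protrusions (adjusted p = 0.0874 from limma, 0.0375 with the block), with protrusions below cell bodies and no overlap. After the GC correction and with the block the adjusted p from limma was 0.0492 for *Npat*, 0.0502 for *Casp8ap2* and 0.157 for *Slbp*, so that *Npat* alone of the 3 was called. The mRNA of the stem-loop binding protein was on the cell body side in both replicates, as were 44.3% of all genes. The sum of all histone messages was not. The H2A sum was, with log2 ratios of -0.37 and -0.17 in replicates 1 and 2, and so was the H3 sum, at -0.35 and -0.08.

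Of 31 genes that act in S phase, 1 was called lower and 0 higher, against 4.25% and 2.99% of all genes. The median log2 fold change was -0.17. *Rrm1*, the large subunit of ribonucleotide reductase, measured 266 and 267 TPM in cell bodies and 188 and 152 TPM in protrusions (log2 fold change -0.65, 95% interval -0.99 to -0.32, adjusted p = 0.0482 from limma, 0.00541 with the block). After the GC correction its log2 fold change was -0.44 (adjusted p = 0.0823 from limma, 0.039 with the block). With the block 6 were lower and 1 higher, against 13.3% and 8.08% of all genes. The 2 next smallest p-values were those of *Mcm10*, a replication initiation factor (log2 fold change -0.51, adjusted p = 0.0683), and *E2f1*, a transcription factor of S phase entry (log2 fold change 0.60, adjusted p = 0.0717), both from limma. Summed over the 31, S phase messages were at 2889.9 and 2847 TPM in cell bodies and 2646 and 2291 TPM in protrusions. The wide difference between the cell body replicates seen in histone messages was not seen in this sum. In protrusions, replicate 1 was above replicate 2 in this sum, as it was in the histone sum. A link between the 2 sums was not tested.

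**Figure D5:**
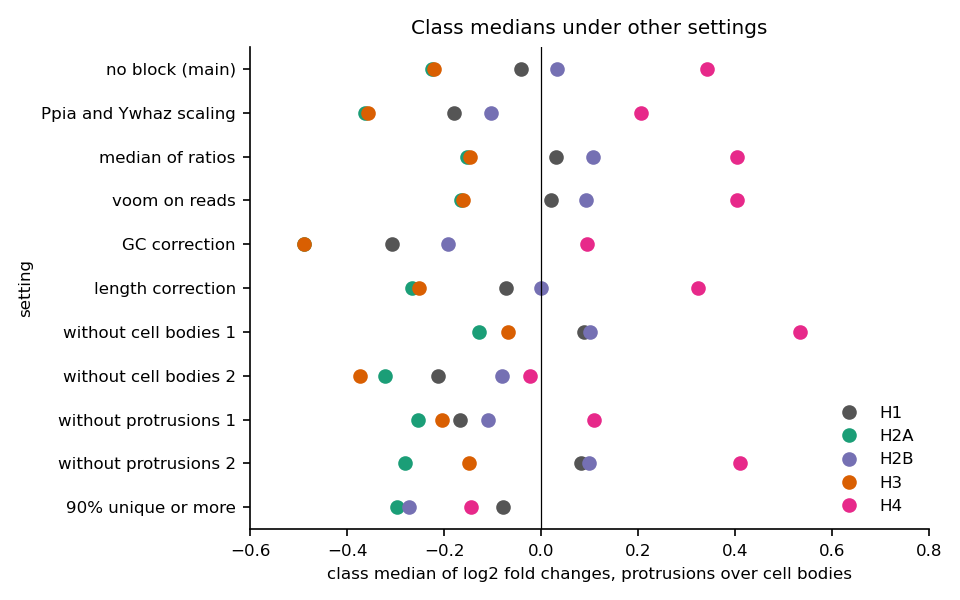
Median log2 fold change, protrusions against cell bodies, of each histone class (horizontal axis) under 11 settings (vertical axis). H4 lies furthest to the right in each setting shown except over genes with at least 90% unique windows, where H1 does and no H3 gene is left. That setting holds only 2 H1, 1 H2A, 2 H2B and 2 H4 genes. The position of 0 relative to the classes moves with the setting.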

How the data were processed

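The authors deposited 1 table of 16537 genes with TPM for each library, made from single-read, strand-specific rRNA-depleted libraries aligned to mm10. The paper's methods name TopHat, and STAR, featureCounts, FastQC and edgeR stand, without versions, in the submitters' notes on processing. The deposited log2 fold change and log2 CPM, the p-value, the FDR and the likelihood ratio score were made by the authors with edgeR. They hold the authors' comparison and were not used, except that log2 CPM set the scale of recovered reads. No per-sample column was left unused.

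TPM was tested as log2(TPM + 0.5) by limma 3.58.1 under R 4.3.3, its prior variance following a trend, on 11400 genes (mean TPM at or above 1), with Benjamini-Hochberg adjustment over all of them. At low TPM this scale makes fold changes smaller. Intervals are 95% intervals of this fit and SDs are over 2 libraries. Because gene length is the same in each library, TPM ratios give whole reads. For all 16537 genes the 4 read numbers were whole to within 0.01, and they served for depth and a limma voom alternative. The scripts were tested on simulated data.

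Supplementary material of the paper marks the TPM values of 1 replicate as paired, and same-numbered libraries deviated together from their fraction means, with a correlation of 0.45 over 11400 genes. Libraries were therefore paired by replicate number, and the blocked fit stands beside results it changed. Genes were matched to GENCODE transcripts of GRCm38, of which 16367 had a GC content, all 67 members included. Windows of 50 bases of a gene were called unique where no transcript of another locus held them. GC content and unique windows of the members were read only from bases that these transcripts cover. Promoters came from RefSeq (GRCm38.p6).

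The members and lists were chosen with earlier results of these data known. In each class the text names the 3 genes with the highest mean TPM, up to 4 genes called with or without the block, and all tested genes outside the *Hist1* cluster, and in other lists the called genes and up to 3 with the smallest p. *Hist1h2bj*, *Hist1h2bl*, *Hist1h2bc*, *H2afz*, *H3f3a*, *H3f3b*, the cell type markers, the genes called after the GC correction and the exceptions named were added after their values were seen. Alternatives were the block, pseudocounts of 0.1 and 1, no filter and a mean TPM of at least 5, scaling to *Ppia* and *Ywhaz* or by median of ratios, voom, corrections for GC content and length, leaving out each library, only genes with at least 90% unique windows, and sums in place of medians. The engineered alleles of the line are not reported here.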

Additional observations from a re-analysis of the deposited data

How the results depend on the processing

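The histone counts without the block were 0 higher and 1 lower. With the replicate block they were 4 and 5 (it changed no other histone call of the uncorrected limma fit), with voom on recovered reads and the replicate block 8 and 5 (against 16.1% and 18% of all genes), with the length correction and the replicate block 5 and 9 (15.5% and 15.2%), and with the GC correction and the replicate block 1 and 14 (11.5% and 13.5%). The number lower was 9 with the GC correction (4.04% of all genes). It was 2 with the length correction and 2 with scaling to *Ppia* and *Ywhaz*, when 659 and 1068 of 11400 genes were called lower. It was 0 without a filter and among the 7 genes with at least 90% unique windows. Without a filter 0 of the 16537 genes of the whole table passed (3630 at an unadjusted p under 0.05 in limma), and 0 histone genes did (6 at an unadjusted p under 0.05).

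The class medians moved by more than the spread between replicates in the following settings. With the GC correction, with or without the replicate block, they were -0.27 over all 56 genes, -0.31 in H1, -0.49 in H2A, -0.19 in H2B and -0.49 in H3. Over the genes with at least 90% unique windows they were -0.25 over all 7, -0.27 in H2B (2 genes) and -0.14 in H4 (2 genes). Leaving out 1 library, the H4 median ran from -0.023 (without cell bodies replicate 2) to 0.54 (without cell bodies replicate 1). Scaling to *Ppia* and *Ywhaz* moved the median of all genes from -0.07 to -0.20. It put the H2B median at -0.10, and median of ratios put the H1 median at 0.03, both on the other side of 0.

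The count of replacement histone genes called higher (1) was 2 with the replicate block, 3 with voom and the block and with the GC correction and the block, 4 with the length correction and the block, and 0 with the GC correction, without a filter and without any 1 library. The count of factors called higher (2) was 4 with voom and the block and 0 without a filter or any 1 library. The count called lower (0) was 3 with the replicate block, with voom and the block and with the length correction and the block, and 1 with a mean TPM of at least 5, scaling to *Ppia* and *Ywhaz*, voom, the length correction, and the GC correction with the block. The count of S phase genes called higher (0) was 1 with the replicate block, the length correction and the GC correction with the block, 2 with voom, 3 with voom and the block and 4 with the length correction and the block. The count called lower (1) was 6 with the replicate block and with the length correction and the block, 5 with voom and the block, 4 with the GC correction and the block, 3 with scaling to *Ppia* and *Ywhaz*, and 0 with the GC correction, median of ratios, no filter or without any 1 library. The counts over all 11400 genes moved with the settings as well. Higher were 341 without the block, 921 with it, 1832 with voom and the block, and 1772 with the length correction and the block. Lower were 485, 1513, 2052 and 1731 in the same settings, and 1068 with scaling to *Ppia* and *Ywhaz*. With the GC correction and the block, 1302 of 11321 genes were higher and 1532 lower. The cause of these changes was not tested. With 2 libraries a fraction, the spread between cell body replicates limits what the unblocked fit can detect, and precision for *Hist1h4m*, *Hist1h4n* and *Hist3h2ba* was limited by 8 to 21 reads a library.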
